A study of Mus musculus with 16 samples.

Results

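Genes of antioxidant defence and sulfur metabolism were followed in the gastrocnemius, a calf muscle, of mice given rosiglitazone in a high-fat diet with or without n-3 LC-PUFA, the long-chain omega-3 fatty acids of fish oil. They were the 10 genes Mpst, Tst, Gclc, Gclm, Gsr, Gpx1, Txnrd1, Hmox1, Cat and Sod2, found by gene name among 27745 genes on the array and measured by 12 of its 41174 gene probes. Mpst was selected on its log2 ratio in this same comparison, where it was lower in the mice with n-3 LC-PUFA, and the other 9 were added for their roles in the same metabolism. The differences between the diets are therefore descriptions for all 10 genes, and how many of the 10 passed a threshold is given only beside the share of all probes that did.

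The study asked how muscle takes part in the response to the combined treatment. All 16 animals were adult male C57BL/6N mice, 3 months old when the diets began and housed with 2 animals per cage. The cHF+ROSI group (n = 8) ate a high-fat diet made mainly with corn oil for 8 weeks, to which the PPARγ-activating drug rosiglitazone was added at 10 mg per kg diet. In the cHF+F+ROSI group (n = 8) a concentrate of n-3 LC-PUFA took the place of part of the lipids of that diet, with the same dose of rosiglitazone. Before they were killed, both groups were fasted for 10 hours and then given Chow overnight, so that every value is from re-fed muscle. No group without rosiglitazone was analysed here, and the labels do not say which mice shared a cage.

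Reactive oxygen species arise in working muscle, mainly from mitochondria and membrane oxidases. Superoxide dismutases turn superoxide into hydrogen peroxide, which catalase, glutathione peroxidases and peroxiredoxins remove. The last 2 of these draw on glutathione and thioredoxin, which glutathione reductase and thioredoxin reductase restore with NADPH. Glutathione is made from cysteine, and cysteine is also the source of 3-mercaptopyruvate, from which the sulfurtransferase encoded by Mpst takes sulfur for persulfides and hydrogen sulfide. Many genes of this defence carry an antioxidant response element (ARE), the site bound by the transcription factor Nrf2 with a small Maf protein.

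RNA of each mouse was labelled with Cy5 and hybridised on its own array against a common Cy3 pool, so each level below is a log2 ratio of a mouse to that pool and does not rank one gene against another. A value of 0 is an equal normalised signal of mouse and pool, and the pool also held RNA from diets not analysed here. Every mouse was labelled with the same dye, so a dye effect of the probe is part of each ratio. A ratio of 0 therefore need not mean an equal RNA level. Each of the 4 slides carried 4 arrays, with cHF+ROSI mice at positions 1 and 3 and cHF+F+ROSI mice at positions 2 and 4, so position on the slide and diet cannot be told apart. The array of cHF+ROSI replicate 1 gave weaker signals than the rest, with a median Cy5 signal of 121.5 intensity units against 153 to 186 on the other arrays. All 9 skeletal muscle markers, Ckm and Acta1 among them, were at least 6794.5 times above background in the Cy5 channel. Markers of other cells were detected too, from 3.89 to 2643 times above background for red blood cells, from 11.0 to 2368.1 for adipocytes, from 20.9 to 178.8 for endothelium and from 4.81 to 46.7 for macrophages. In bulk muscle, fewer cells of a type and less RNA per cell cannot be told apart.

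In the tested table of 19398 probes, 3 passed an adjusted p of 0.05 in limma (Benjamini-Hochberg over all probes), or 0.0155%. Of the 10 genes 0 did so. By the methods' t-test 0 did with the same adjustment, which the paper does not describe for that test. At a nominal (unadjusted) p of 0.05 or less there were 1444 probes (7.44%), of which those lower in the cHF+F+ROSI mice were 3.95% of all probes. Among the 10 genes these were 2, Mpst and Gclc, both lower in the cHF+F+ROSI mice. Without adjustment, the methods' t-test gave the same 2 genes at a p of 0.05 or less, beside 1463 of 19398 probes. Since the choice of genes used this contrast, nothing is read from these counts. All 12 probes passed the filter on weak spots and lay well above background in both channels on all 16 arrays, and none was saturated. In all 10 genes the 2 groups of mice overlapped, while 0.0773% of all probes had groups without overlap.

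The sequences below show the start of Mpst and the ARE-like letters found near the starts of the 10 genes. RefSeq places Mpst on chromosome 15 from 78406712 to 78414015 (GRCm38.p6) and Tst, its relative, from 78399556 to 78405865. The 846 bases between these neighbours hold 0 other annotated genes. The 250 bases before the first annotated start of Mpst, chr15:78406462-78406711 on the plus strand of GRCm38.p6, are printed in lower case with no capitals because no motif searched was found there.
Mpst upstream: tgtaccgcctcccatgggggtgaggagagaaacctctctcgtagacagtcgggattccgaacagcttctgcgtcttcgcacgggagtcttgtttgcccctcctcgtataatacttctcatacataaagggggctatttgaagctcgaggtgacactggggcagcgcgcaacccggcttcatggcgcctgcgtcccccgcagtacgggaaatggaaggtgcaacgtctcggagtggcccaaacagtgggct
Start regions of 300 bases, 250 before and 50 after each start, were at hand for 6 of the 10 genes in 10 entries, since Mpst and Txnrd1 have several starts. The ARE core TGACNNNGC, searched on both strands, was found in 3 of the 10 entries and in 12.4% of all 32851 start regions. The 3 matches are printed in capitals with 10 bases on each side, read on the strand of the gene, from chr15:78406779-78406807 (Mpst), chr3:122245413-122245441 (Gclm) and chr10:82859104-82859132 (Txnrd1), all on the plus strand of GRCm38.p6.
Mpst: ggggagggggTGACATGGCggagctggga
Gclm: gctcccgggcGCACCGTCAactctcacga
Txnrd1: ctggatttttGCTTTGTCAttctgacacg
The Mpst match reads along the gene and begins 12 bases before its second annotated start, downstream of the first one. The matches of Gclm and Txnrd1 lie on the opposite strand, and the latter sits at an inner start of that gene. The GC box GGGCGG was in 5 of the 10 entries, against 35.7% of all start regions, and the PPAR response element, 2 copies of AGGTCA with 1 base between them, in 0 of 10, against 0.0396%. All motifs were searched on both strands, and no match of one overlapped a match of another. A match is a description of the sequence, and no binding was measured.

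Mpst showed the widest gap between the diets among the 10 genes. Its probe lies on chromosome 15 from 78241021 to 78241080 in the NCBI36 (mm8) assembly of the array design, to which all probe positions below refer. In the cHF+ROSI mice 1 to 8, the log2 ratio of Mpst was -0.05, -0.38, -0.0030, -0.86, -0.59, -0.99, -0.49 and -1.01. In the cHF+F+ROSI mice 1 to 8, it was -1.37, -1.65, -1.28, -1.15, -0.79, -0.64, -0.91 and -1.63. The cHF+F+ROSI mice were the lower group, and 5 of them lay below every cHF+ROSI mouse, while cHF+F+ROSI replicates 5, 6 and 7 lay within the range of the other group. The means were -1.18 ± 0.38 (SD, n = 8) and -0.55 ± 0.39 (SD, n = 8), a difference of -0.63 (standard error 0.17), which is a level 0.646 times that of the cHF+ROSI mice. By the size of the difference, Mpst was in place 34 of 19398 probes. Since Mpst was selected on this comparison, this place and the widest gap are descriptions only.

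The lower ratio went with a lower mouse signal and not with a higher reference signal. Before correction, the Mpst spot gave between 1273 and 3784 Cy5 units in the cHF+F+ROSI mice and between 2198.5 and 6110 units in the cHF+ROSI mice. The Cy3 signal of the pool lay between 914 and 1225.5 units over all 16 arrays, and its normalised level differed by -0.05 (standard error 0.045) between the arrays of the groups. The lowest cHF+ROSI signal was that of replicate 1, on the dim array.

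**Figure D1:**
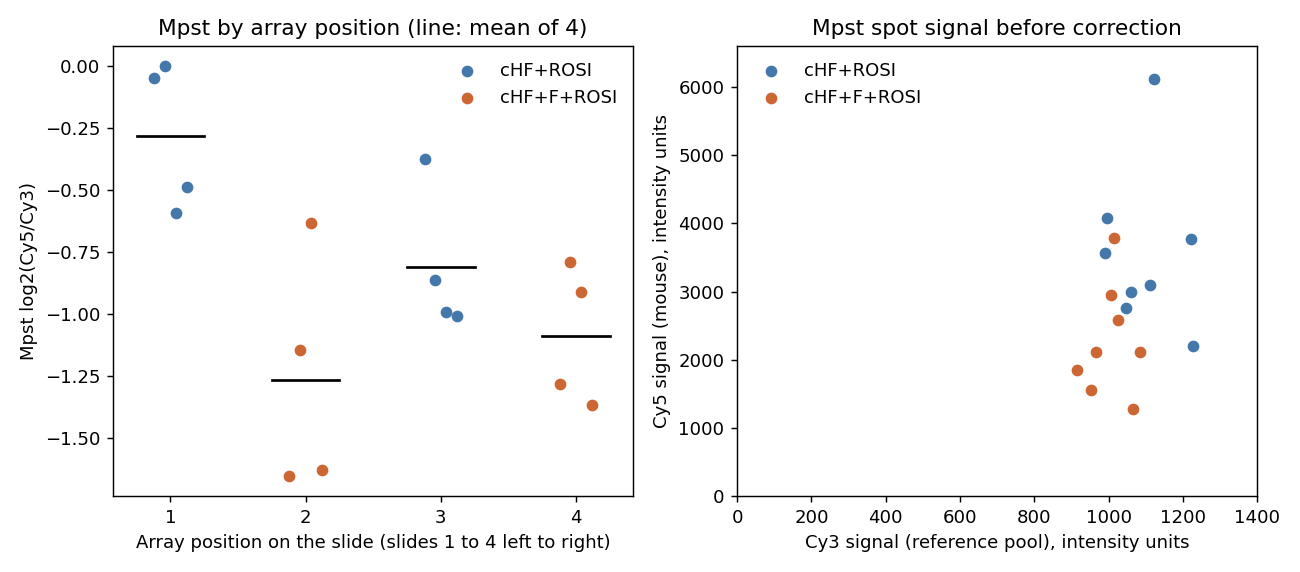
Mpst on the 16 arrays. Left, log2(Cy5/Cy3) of each mouse by array position on the slide, with the mean of 4 arrays as a line, and right, Cy5 signal of the mouse against Cy3 signal of the pool in intensity units. Positions 1 and 3 hold cHF+ROSI mice and positions 2 and 4 cHF+F+ROSI mice, and the Cy3 signal stays between 914 and 1225.5 units while the Cy5 signal runs from 1273 to 6110 units.

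The difference of Mpst varied between slides and positions. Within slides 1 to 4, each with 2 mice per group, the cHF+F+ROSI minus cHF+ROSI difference of Mpst was -1.25, -0.54, 0.02 and -0.75, so that it was lower on 3 slides and close to 0 on slide 3. By position, the mean log2 ratio of Mpst was -0.29 at position 1 and -0.81 at position 3 in the cHF+ROSI mice, and -1.27 at position 2 and -1.09 at position 4 in the cHF+F+ROSI mice, with 4 mice each. Within the cHF+ROSI group the mouse at position 1 was higher than the mouse at position 3 on 4 of 4 slides. Within the cHF+F+ROSI group the mouse at position 2 was higher than that at position 4 on 1 of 4 slides. The part of position in the difference was not tested. When single mice were left out, the Mpst difference stayed between -0.71 (without cHF+F+ROSI replicate 6) and -0.55 (without cHF+ROSI replicate 3).

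Tst, the sulfurtransferase also called rhodanese, transfers sulfur from thiosulfate and detoxifies cyanide. Its probe is on chromosome 15 from 78226883 to 78226942. The lowest, median and highest log2 ratios of Tst were 0.13, 0.34 and 0.40 in the cHF+F+ROSI mice and -0.0096, 0.20 and 0.53 in the cHF+ROSI mice. The cHF+F+ROSI mice thus lay inside the range of the other group. The difference of Tst was 0.06 (standard error 0.078, n = 8 per group), and it ran from -0.21 on slide 4 to 0.25 on slide 2. The neighbouring genes Mpst and Tst did not vary together among mice of a group, with a Pearson r of -0.02 and a Spearman rho of 0.07 over 16 mice after the group means were subtracted.

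**Figure D2:**
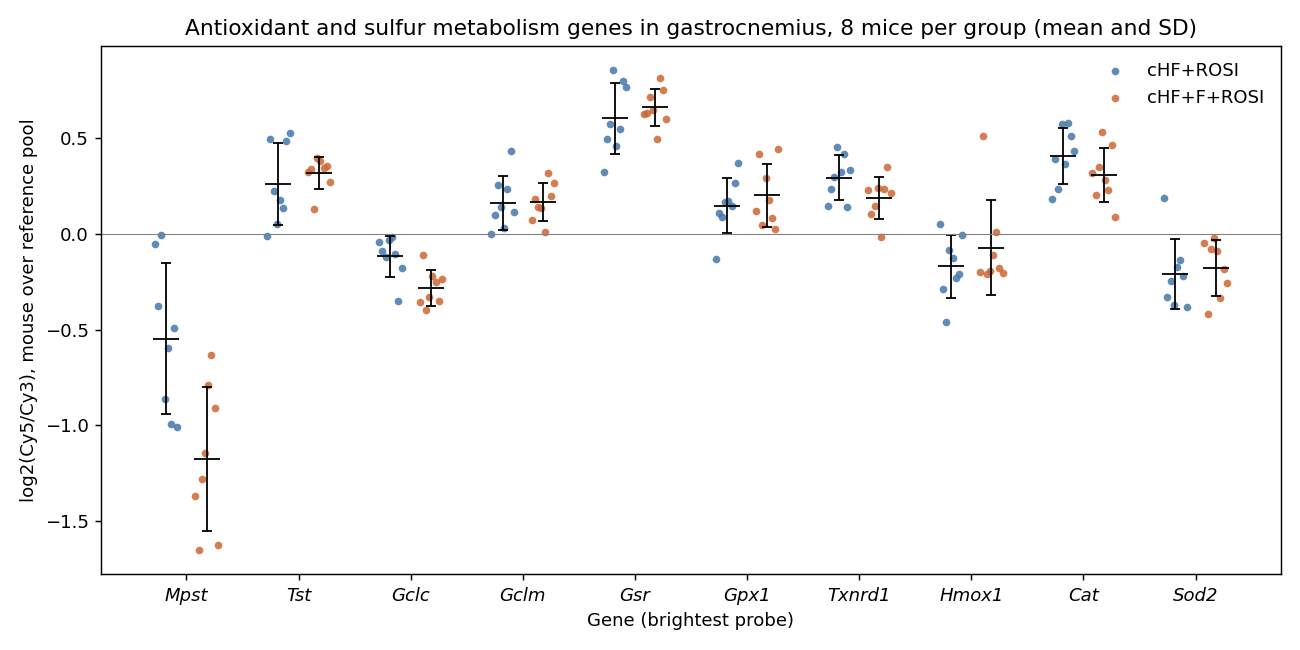
Log2 ratio of each mouse to the reference pool for the brightest probe of each gene, with points for single mice (left to right, replicates 1 to 8) and black marks for mean and SD of 8 mice. Mpst has the widest spread, from -1.65 to -0.0030, and in every gene the 2 groups overlap.

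Glutathione is made in 2 steps, and Gclc and Gclm encode the catalytic and the modifier subunit of glutamate-cysteine ligase, the enzyme of the first step. The Gclc probe is on chromosome 9 from 77579173 to 77579232. Gclc had lowest, median and highest log2 ratios of -0.40, -0.29 and -0.11 in the cHF+F+ROSI mice and of -0.35, -0.09 and -0.02 in the cHF+ROSI mice. Of the cHF+F+ROSI mice 7 lay below the mean of the cHF+ROSI mice, and cHF+ROSI replicate 7, at -0.35, lay among the low values of the other group. The difference of Gclc was -0.17 (standard error 0.054), next to Mpst in size, and it was below 0 on all 4 slides, from -0.24 on slide 3 to -0.03 on slide 4. It was also below 0 under all 30 processings and left-out mice, between -0.20 and -0.13.

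Gclm, the modifier subunit, was measured on chromosome 3 from 122251278 to 122253913, a span longer than a probe, as over a splice junction. Its log2 ratios were 0.01, 0.16 and 0.32 (lowest, median, highest) in the cHF+F+ROSI mice and -0.0019, 0.13 and 0.43 in the cHF+ROSI mice. The difference of Gclm was 0.0022 (standard error 0.062). Whether the 2 subunits differed from each other in their response was not tested. Its sign changed with the processing, being below 0 in 15 of 30 settings. Gclm was the dimmest of the 10 genes, 6.30 times above background in Cy5 and 2.35 times in Cy3, so its ratio carries the least signal.

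Gsr encodes glutathione reductase, which restores glutathione from its disulfide with NADPH. Of the 10 genes it alone had 3 probes, all on chromosome 8, the brightest from 35163862 to 35163921. That probe had log2 ratios of 0.50, 0.64 and 0.82 (lowest, median, highest) in the cHF+F+ROSI mice and 0.33, 0.56 and 0.86 in the cHF+ROSI mice. The cHF+F+ROSI values again lay within those of the other group. The difference of Gsr was 0.06 (standard error 0.073), and the probes beginning at 35163276 and 35163841 gave 0.03 (standard error 0.063) and 0.10 (standard error 0.097). With scale normalization between arrays, the difference of the brightest Gsr probe turned to -0.20.

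Gpx1, the cytosolic glutathione peroxidase and a selenoprotein, reduces hydrogen peroxide with glutathione. Its probe on chromosome 9, from 108198037 to 108198096, was 614 times above background in Cy5. Gpx1 had log2 ratios of 0.03, 0.15 and 0.45 in the cHF+F+ROSI mice and -0.13, 0.16 and 0.37 in the cHF+ROSI mice (lowest, median, highest). The medians lay side by side, and the difference was 0.05 (standard error 0.075). The 2 highest cHF+F+ROSI mice for Gpx1, replicates 8 (0.45) and 2 (0.42), were the 2 lowest for Mpst. How these 2 genes varied together changed with the normalization, as given below.

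Txnrd1, the cytosolic thioredoxin reductase, is a selenoprotein that keeps thioredoxin reduced. Its probe is on chromosome 10 from 82327284 to 82327343. The lowest, median and highest log2 ratios of Txnrd1 were -0.02, 0.22 and 0.35 in the cHF+F+ROSI mice and 0.14, 0.31 and 0.46 in the cHF+ROSI mice. Although 7 of 8 cHF+F+ROSI mice lay below the mean of the other group, only 2 of them lay below all its mice. The difference of Txnrd1 was -0.11 (standard error 0.058), below 0 in all 4 slides and in all 30 settings (from -0.27 to -0.04).

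Cat and Sod2 remove hydrogen peroxide and superoxide, catalase in peroxisomes and manganese superoxide dismutase in mitochondria. Cat, measured on chromosome 2 from 103255342 to 103255401, had log2 ratios of 0.09, 0.30 and 0.53 in the cHF+F+ROSI mice and 0.19, 0.41 and 0.58 in the cHF+ROSI mice (lowest, median, highest). Its difference was -0.10 (standard error 0.071), but it was near 0 on slides 1 (-0.01) and 2 (0.0015) and larger on slide 4 (-0.27). Sod2, measured on chromosome 17 from 12858140 to 12858199, was the brightest of the 10 genes, 2120 times above background in Cy5. Its log2 ratios were -0.42, -0.13 and -0.02 in the cHF+F+ROSI mice and -0.38, -0.23 and 0.19 in the cHF+ROSI mice. The highest Sod2 value came from the dim array of cHF+ROSI replicate 1. The difference of Sod2 was 0.03 (standard error 0.080), and 0.09 without that mouse.

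Hmox1 encodes the inducible haem oxygenase, which breaks down haem. It is a known target of Nrf2 and is high in macrophages. It was measured on chromosome 8 from 77996380 to 77996439. The log2 ratios of Hmox1 were -0.21, -0.19 and 0.51 in the cHF+F+ROSI mice and -0.46, -0.17 and 0.05 in the cHF+ROSI mice (lowest, median, highest). A single mouse, cHF+F+ROSI replicate 2, stood apart at 0.51, with the next of its group at 0.0091. The difference of Hmox1 was 0.10 (standard error 0.098), and 0.01 without that mouse.

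**Figure D3:**
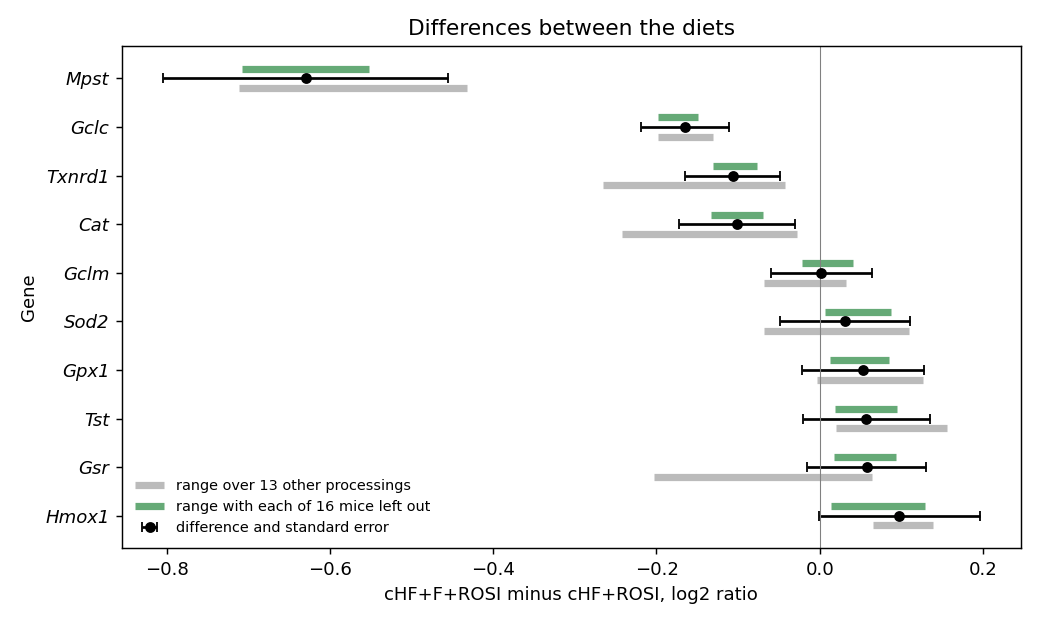
Difference of each gene between the diets (cHF+F+ROSI minus cHF+ROSI, log2 ratio), with its standard error in black, the range with each of 16 mice left out in green and the range over 13 other processings in grey. Mpst lies between -0.71 and -0.43 throughout, and the other 9 genes lie between -0.27 and 0.16.

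Among the 9 genes beside Mpst, the differences lay between -0.17 and 0.10, with 3 below 0 and 6 above. With scale normalization between arrays 6 of the 9 were below 0, and with the Cy5 channel alone 5 were. Over all tested probes 50.7% lay below 0. The median difference of the 10 genes was 0.02, and that of all probes -0.0012. Mpst also varied most within the groups, with an SD of 0.39 against 0.10 to 0.21 for the other 9 genes and a median of 0.14 over all probes, and 3.88% of probes varied as much or more.

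The wider metabolism was read from 6 lists with 108 genes on the array other than the 10, of which 94 passed the filter. In limma 0 of these 94 passed an adjusted p of 0.05, and 2 (2.13%) had a nominal p of 0.05 or less, against 7.44% of all probes. With array quality weights there were 6 of the 94, beside 1683 of 19398 probes. The authors' normalized table gave 7 of the 94, beside 1946 of its 24377 probes. The methods' t-test also called 0 after adjustment. Gstz1 was the higher of the 2 and Mafk the lower. The 94 genes had a median difference of -0.0028, with 48 below 0 and 46 above, beside -0.0012 over all probes.

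**Figure D4:**
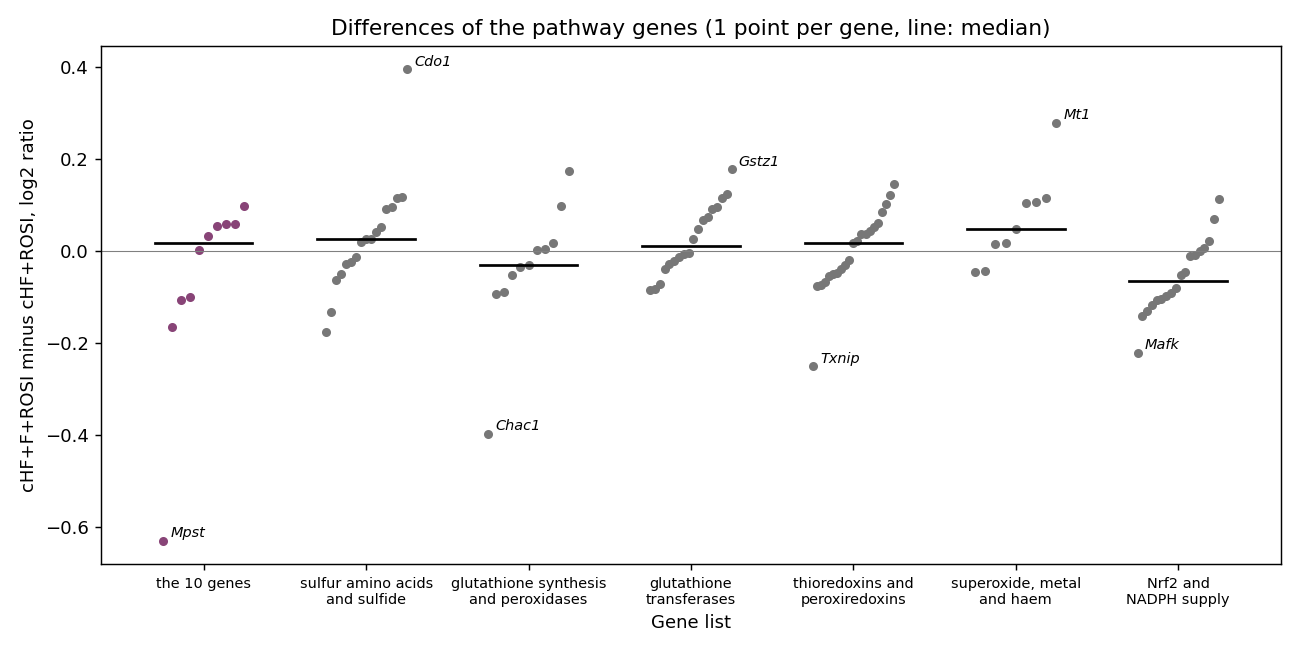
Differences between the diets (cHF+F+ROSI minus cHF+ROSI, log2 ratio) for the 10 genes and for the genes of 6 pathway lists, 1 point per gene with the median of a list as a line. Mpst, at -0.63, lies below every gene of the 6 lists, whose differences run from -0.40 (Chac1) to 0.39 (Cdo1). Mpst was selected on this same comparison.

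Gstz1 encodes the glutathione transferase that isomerises maleylacetoacetate in tyrosine breakdown. Its log2 ratios were 0.17, 0.33 and 0.56 in the cHF+F+ROSI mice and -0.02, 0.17 and 0.29 in the cHF+ROSI mice (lowest, median, highest). Every one of the 8 cHF+F+ROSI mice was above the cHF+ROSI mean. The difference of Gstz1 was 0.18 (standard error 0.054, adjusted p = 0.416 in limma). Mafk, one of the small Maf proteins that pair with Nrf2, had log2 ratios of -0.51, -0.16 and 0.03 in the cHF+F+ROSI mice and -0.18, 0.02 and 0.15 in the cHF+ROSI mice. Its difference was -0.22 (standard error 0.075, adjusted p = 0.483 in limma). Neither gene passed the adjusted threshold.

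The largest differences in the lists belonged to variable genes. Chac1, an enzyme that cleaves glutathione, ran from -1.59 to 1.25 with n-3 LC-PUFA and from -1.87 to 1.06 without, a difference of -0.40 (standard error 0.38, adjusted p = 0.861 in limma). Cdo1, cysteine dioxygenase, which sends cysteine towards taurine, ran from -0.61 to 1.27 and from -0.48 to 0.83, a difference of 0.39 (standard error 0.25, adjusted p = 0.748). Both spreads between mice were wider than the gap between the diets. Mt1, a metallothionein that binds zinc and copper, differed by 0.28 (standard error 0.18, adjusted p = 0.748), and Txnip, which binds and inhibits thioredoxin and responds to glucose, by -0.25 (standard error 0.13, adjusted p = 0.710).

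By list, the sulfur amino acid and sulfide genes had 7 of 17 differences below 0 and a median of 0.02. The glutathione synthesis and peroxidase genes had 6 of 11 below 0 (median -0.03), the glutathione transferases 9 of 18 (median 0.01), and the thioredoxin and peroxiredoxin genes 10 of 21 (median 0.02). The superoxide, metal and haem genes had 2 of 9 below 0 (median 0.05). The last list held Nrf2 with related and partner factors, its repressors Keap1 and Bach1, and also Nqo1, Nqo2 and NADPH-supplying enzymes. It had 14 of 18 below 0 (median -0.07, and -0.03 without cHF+F+ROSI replicate 2), of which only Mafk had a nominal p of 0.05 or less. Keap1 (-0.14) and Bach1 (-0.10) were among the lower genes, so the count gives no direction for Nrf2 activity. Cbs, which makes cystathionine, and Slc7a11, the cystine transporter, were among the genes that did not pass the filter on weak spots.

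Among mice of the same diet, the 10 genes formed no common pattern. After the group means were subtracted, 6 of 45 pairs had a Pearson r over 0.5 in size over 16 mice that share slides and a normalization. Gclm and Gsr, both of glutathione metabolism, had r = 0.60 and rho = 0.57, and r = 0.50 without the dim array of cHF+ROSI replicate 1. Sod2 ran against Gsr (r = -0.60) and Gpx1 (r = -0.59), but without the dim array of cHF+ROSI replicate 1 these were -0.38 and -0.38. Gclc and Hmox1 had r = 0.53, but it was 0.82 within the cHF+F+ROSI mice and 0.19 within the cHF+ROSI mice. The mouse cHF+F+ROSI replicate 2 was the highest of its group for both of these genes. Pairs without Mpst were not repeated with median centring, so how far they depend on the normalization was not tested.

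**Figure D5:**
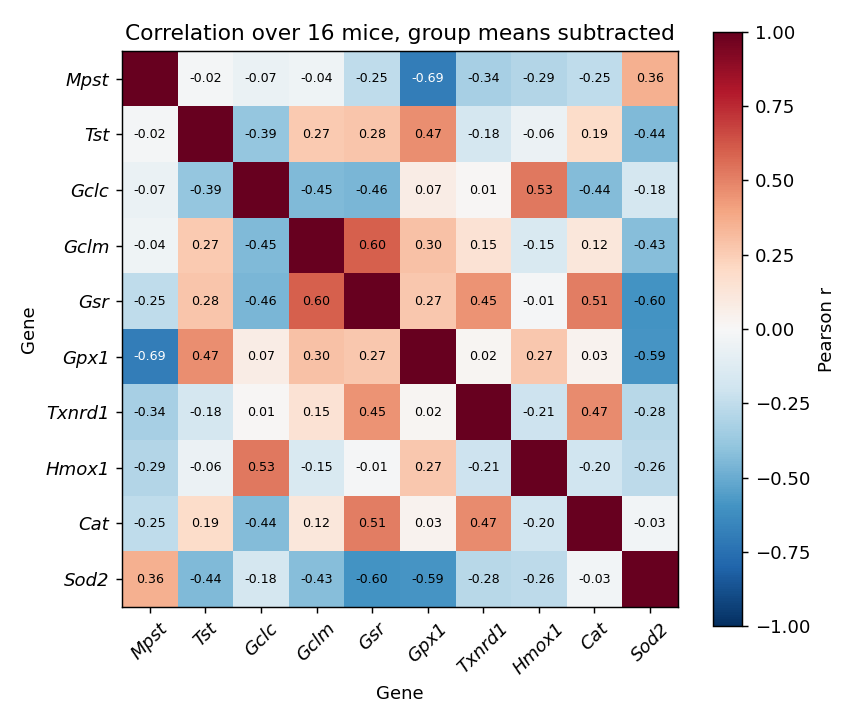
Pearson r between the 10 genes over 16 mice after the group means were subtracted, on a colour scale from -1 to 1. Mpst with Gpx1 has the most negative value (-0.69) and Gclm with Gsr the most positive (0.60).

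The pair furthest from 0 was Mpst and Gpx1, at r = -0.69 and rho = -0.66. It was -0.69 within the cHF+F+ROSI mice and -0.70 within the cHF+ROSI mice, and leaving out the 2 mice farthest from the Mpst median gave -0.70. It was -0.69 when the means of the 4 array positions were subtracted in place of the group means. With median centring in place of loess, however, r was -0.13. The relation thus changed with the normalization, and which of the 2 values is nearer to the muscle was not tested.

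Some other probes varied with Mpst among mice of the same diet. How those probes varied with one another, and how many such partners other probes have, was not examined. Of 19309 other probes, 157 had r over 0.8 with Mpst over the 16 mice and 37 had r below -0.8. With the means of the 4 array positions subtracted in place of the group means, these counts were 81 and 26. The 5 genes most like it were Elf2 (r = 0.93, rho = 0.94), Fxr1h (0.92 and 0.90), Timm17a (0.91 and 0.94), Rpia (0.91 and 0.91) and Ccdc109a (0.90 and 0.88). Elf2 encodes an ETS transcription factor, Fxr1h an RNA-binding protein, Timm17a a subunit of the mitochondrial import machinery, Rpia an isomerase of the pentose phosphate pathway, and Ccdc109a the pore of the mitochondrial calcium uniporter. With the 2 mice farthest from the median of Mpst left out, r for these 5 was between 0.88 and 0.92, and with median centring between 0.90 and 0.95. The 5 were picked by r in these same mice. Of them 1 stayed among the first 5 with median centring and 0 did without cHF+ROSI replicate 3. Their own differences between the diets were smaller than that of Mpst, from -0.28 (Fxr1h, standard error 0.11) to 0.0072 (Timm17a, standard error 0.096), and their SD within groups was 0.20 to 0.25.

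Markers of fibre type and of other cells moved beside some of the 10 genes. The mean log2 ratio of 9 slow fibre genes lay between -2.14 and 0.23 with n-3 LC-PUFA and between -1.36 and 0.68 without, with the lowest value in cHF+F+ROSI replicate 2, the mouse with the highest Hmox1 and the lowest Mpst. Over 16 mice with group means subtracted, this slow fibre mean had r = 0.56 (rho = 0.57) with Mpst, 0.64 (0.63) with Sod2, -0.71 (-0.71) with Gpx1 and -0.72 (-0.44) with Hmox1. Without cHF+F+ROSI replicate 2 these r were 0.46, 0.53, -0.64 and -0.41. Mpst was about as close to the means of the red blood cell markers (r = 0.52) and of the skeletal muscle markers (r = 0.52), and had r = -0.40 with the macrophage markers. Hmox1 had r = -0.56 with the skeletal muscle mean and 0.46 with the macrophage mean, and Cat had r = -0.53 with the adipocyte mean. No correlation with a marker mean was repeated with median centring, so how far each rests on the normalization was not tested. Of 9 slow fibre genes 8 lay lower in the cHF+F+ROSI mice, with a median difference of -0.39, and -0.11 without that mouse, and 0 had a nominal p of 0.05 or less. Of 6 endothelial markers 5 lay lower, 3 of them (Kdr, Cdh5 and Cldn5) at a nominal p of 0.05 or less and 0 after adjustment in limma. The other, Vwf, lay higher by 0.20 (standard error 0.13). Over all probes 7.44% had a nominal p of 0.05 or less and 50.7% lay lower. The mean of the endothelial markers lay between -0.39 and -0.06 with n-3 LC-PUFA and between -0.24 and 0.07 without, and it had r = -0.62 with both Gclm and Gsr and 0.49 with Gclc. All 4 red blood cell genes had a higher group mean (median difference 0.17). Their list mean lay between -0.60 and 0.94 with n-3 LC-PUFA and between -0.68 and -0.06 without. For Hba-a1, Hbb-b1 and Alas2, however, 4 of the 8 cHF+F+ROSI mice lay below the cHF+ROSI mean, and for Slc4a1 3 did. Of the adipocyte genes 5 of 7 lay higher (median difference 0.32), with a mean between -1.40 and 1.00 with n-3 LC-PUFA and between -1.02 and 0.38 without. The part of these cells in the differences of the 10 genes was not tested.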

How the data were processed

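Gastrocnemius RNA of 16 mice was measured on Agilent 44K two-color arrays with a common Cy3 pool. The authors deposited spot intensities from Feature Extraction, which is version 10.5.1.1 in the file headers and 10.5.5.1 in the submitters' processing notes, and a table of normalized log2 values, used here as an alternative only.

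From the deposited intensities, median signals were background-corrected by normexp with an offset of 50 (which makes differences of weak probes smaller), control spots were left out, and a probe was kept where its signal averaged 2 or more times the background in Cy5 and in Cy3. Loess then normalized log2(Cy5/Cy3) on each array, without outlier-flagged spots. The groups were compared in R 4.3.3 by limma 3.58.1 (lmFit and eBayes), and p was adjusted over 19398 probes (Benjamini-Hochberg). Where a gene had several probes, the brightest was used. The fit was tried on these arrays with mixed group labels and known changes put into the Cy5 signal of some probes. Those changes were larger than the difference of Mpst, so recovery of smaller ones was not tried. Of the lists, genes with a nominal (unadjusted) p of 0.05 or less were named and filled to 6 by size of difference, and the 5 genes with the highest r to Mpst were named. Genes, lists and rules were chosen with earlier results of these data known. Accessions of all 10 genes matched RefSeq, which supplied the sequences. Replicates are separate mice, and their number limits precision. Alternatives covered background, normalization, filter, blocks, weights, the methods' t-test and each mouse left out.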

Additional observations from a re-analysis of the deposited data

Results flagged for a closer look

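The highest or lowest mouse of a group of 8 was set against its nearest neighbour by Dixon's ratio of gap to range in 46 groups, those of the 12 probes, the 6 named pathway genes and the 5 genes most like Mpst. It was far from the others in 4 groups, where chance gives about 1 in 20, or 2.3. Hmox1 was at 0.51 in cHF+F+ROSI replicate 2, with the next mouse at 0.0091. Sod2 was at 0.19 in cHF+ROSI replicate 1, the mouse of the dim array, with the next at -0.13. Tst was at 0.13 in cHF+F+ROSI replicate 3, with the next at 0.27. Chac1 was at -1.87 in cHF+ROSI replicate 6, with the next at -0.32.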

How the results depend on the processing

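The difference of Mpst was below 0 in all 30 settings run, from -0.71 (median centring) to -0.43 (scale normalization between arrays), and 0 of the 10 genes passed an adjusted p of 0.05 in any of them or by the methods' t-test. Gclc, Txnrd1 and Cat were below 0 and Tst and Hmox1 above 0 in all 30 settings, while Gclm, Gsr, Gpx1 and Sod2 changed sign in at least 1. Of the 9 genes beside Mpst 3 lay lower, but 6 did with scale normalization and 5 with the Cy5 channel alone. With scale normalization, the 2 of the 10 genes at a nominal p of 0.05 or less were Gclc and Txnrd1, and Mpst was no longer among them. The 3 probes past an adjusted p of 0.05 in limma became 14 without background correction, 19 with processed signals, 8 with the Cy5 channel alone, 10 in the authors' table, 13 with array weights, 1 with median centring, 0 with scale normalization (964 at a nominal p of 0.05 or less) and 2 by the methods' t-test, and 3 to 5 with each mouse left out. The 1444 probes at a nominal p became 820 with median centring. The 2 of 94 pathway genes at a nominal p became 4 with processed signals, beside 2037 of 19398 probes. Median centring gave 1, beside 820 probes. There were 7 in the authors' table, beside 1946 of 24377 probes, and 4 without a filter, beside 2128 of 41174. Array weights gave 6, beside 1683 of 19398 probes. With each mouse left out there were 2 to 6, beside 1181 to 1972 probes. The highest count came without cHF+ROSI replicate 1, beside 1245 of 19452 probes. The causes were not tested.

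The deviations of mice with the same replicate number were mixed (r between -0.34 and 0.73 over 8 pairs, above 0.1 in 4 and not in the other 4), so the numbers were not taken to pair mice. With the replicate number as a block, 0 probes passed an adjusted p of 0.05 in limma, 1430 had a nominal p of 0.05 or less, and the pathway genes at a nominal p were 4. Of the 5 genes most like Mpst, 1 was again among the first 5 with median centring, 3 with the means of array positions subtracted (chosen after seeing the data) and 0 to 5 with each mouse left out, 0 without cHF+ROSI replicate 3. The weak Cy3 signal limits ratios of dim genes such as Gclm.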
